A study of Mus musculus with 6 samples.

Results

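The suppressor of cytokine signaling (SOCS) family consists of 8 genes, *Cish* and *Socs1* to *Socs7*, which were taken by gene symbol from a table of 26264 genes measured in hematopoietic stem cells (HSCs). All 8 were present, and all 8 passed the minimum mean normalized count of 10 that left 17404 genes for testing. RNA-seq was performed on HSCs, gated as lineage-negative, Sca-1 and c-Kit positive, CD150 positive and CD48 negative, from the bone marrow of untreated 8-week-old female mice, with 3 WT (C57Bl/6) and 3 *Irf1-/-* (B6.129S2-Irf1 tm1Mak/J) libraries, each labelled as a biological replicate. The *Irf1-/-* mice lack the transcription factor IRF1 in every tissue from birth, so differences in their HSCs can arise in the HSCs or in the animal around them. Between 43138521 and 59658080 reads were assigned to genes per library, and values are normalized counts, in which reads are divided by a size factor for each library.

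SOCS proteins are feedback inhibitors of cytokine receptors. Cytokine binding activates Janus kinases (JAKs), which phosphorylate STAT transcription factors, and STATs then switch on SOCS genes among others. Each SOCS protein carries an SH2 domain, which binds phosphotyrosine, and a SOCS box, which recruits an elongin and cullin ubiquitin ligase, and CIS and SOCS1 to SOCS3 are the members best known for restraining JAK-STAT signaling. In blood stem and progenitor cells, interferons and the receptors that signal through gp130 or the common beta chain are among the inputs these proteins limit.

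*Irf1*, the targeted gene, was examined first. It measured 10122, 11120 and 12057 normalized counts in WT replicates 1 to 3 and 9267, 9524 and 9287 in *Irf1-/-* replicates 1 to 3. Every *Irf1-/-* library lay below every WT library, yet the *Irf1-/-* mean was still 84.3% of the WT mean. A count per gene does not show which exons the reads came from, so it is a weak check of the genotype labels. The log2 fold change of *Irf1-/-* over WT was −0.24 ± 0.09 (SE; limma, adjusted *P* = 0.17), on the scale of log2(normalized count + 1) used for every fold change here.

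Of the 8 SOCS genes, 1 was called higher in *Irf1-/-* HSCs and 0 were called lower, where a call needed an adjusted *P* below 0.05 and a log2 fold change beyond 0.58 in either direction. Over all 17404 genes, 1.91% were called, 0.96% higher and 0.954% lower. That is 333 genes, a count that became 204 without *Irf1-/-* replicate 3, 207 without WT replicate 2 and 569 without WT replicate 3. By direction the 333 were 167 higher and 166 lower, against 7 higher and 33 lower in limma without the mean-variance trend, and 299 higher and 211 lower in DESeq2. At an unadjusted *P* below 0.05 in limma, 4 SOCS genes were higher and 1 was lower, 5 of 8 in all, while 16.5% of all tested genes reached that level. DESeq2 and edgeR on recovered reads each called 1 member higher and 0 lower. The libraries of the genotypes did not overlap for 6 of the 8 members, 4 with *Irf1-/-* above WT and 2 below, and they did not overlap for 19.9% of all tested genes. The median log2 fold change of the family was 0.18, and it was −0.0028 over all tested genes. The family median became 0.12 when either *Irf1-/-* replicate 2 or WT replicate 3 was dropped.

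*Socs3*, which binds gp130 and related receptors and inhibits the JAKs attached to them, was the called member. It measured 694, 568 and 892 normalized counts in WT replicates 1 to 3. The *Irf1-/-* replicates 1 to 3 measured 1562, 1724 and 1541. The genotypes did not overlap, and the gap between the highest WT and the lowest *Irf1-/-* library was wider than the range within either genotype. The means were 718 ± 163 in WT and 1609 ± 100 in *Irf1-/-* HSCs (SD, n = 3 each). The difference was 2.28-fold (95% interval 1.81 to 2.86), a log2 fold change of 1.19 ± 0.15 (SE; limma, adjusted *P* = 0.00074), with all 3 *Irf1-/-* libraries above all 3 WT libraries. By size of fold change *Socs3* was number 34 among the 167 genes called higher. An exact two-sided permutation test of *Socs3* gave *P* = 0.1, the smallest value that 3 against 3 libraries allow. Without the mean-variance trend in limma the fold change was the same and the call was lost (adjusted *P* = 0.12; range over the 16 alternatives 3.5e-11 to 0.12), as were the calls of every listed pathway and marker gene named below.

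*Cish* encodes CIS, an inhibitor induced by STAT5 downstream of receptors such as those for erythropoietin and interleukin-3. It measured 5287, 5138 and 6286 normalized counts in WT replicates 1 to 3. In *Irf1-/-* replicates 1 to 3 it measured 9731, 6753 and 7065. The genotypes did not overlap, but *Irf1-/-* replicate 1 stood well above the other two. The log2 fold change was 0.48 ± 0.13 (SE; limma, adjusted *P* = 0.062), short of both thresholds of a call. Without *Irf1-/-* replicate 1 the log2 fold change was 0.32 (adjusted *P* = 0.22; range over the 16 alternatives 0.0059 to 0.38). It stayed below 0.58 under every alternative, so *Cish* was not called in DESeq2 either (adjusted *P* = 0.0059).

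*Socs2*, a regulator of growth hormone signaling that is also induced by STAT5, gave a difference of similar size. Its counts were 2493, 1868 and 2063 in WT replicates 1 to 3. They were 2906, 3622 and 2576 in *Irf1-/-* replicates 1 to 3. WT replicate 1, the highest of its genotype, came close to *Irf1-/-* replicate 3, the lowest of its own, without overlap. The log2 fold change was 0.50 ± 0.14 (SE; limma, adjusted *P* = 0.066), short of a call. When WT replicate 1 was left out, *Socs2* was called higher, with a log2 fold change of 0.61 (adjusted *P* = 0.039; range over the 16 alternatives 0.0089 to 0.36).

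*Socs1*, which inhibits JAKs directly and is the main brake on interferon-gamma signaling, differed in the other direction. It measured 791, 765 and 752 normalized counts in WT replicates 1 to 3. It measured 701, 741 and 618 in *Irf1-/-* replicates 1 to 3. WT libraries lay close together and just above all *Irf1-/-* libraries, with *Irf1-/-* replicate 3 the lowest. The log2 fold change was −0.17 ± 0.14 (SE; limma, adjusted *P* = 0.62), with a 95% interval from −0.46 to 0.12 that includes 0, and it was −0.094 when *Irf1-/-* replicate 3 was dropped.

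The remaining members, *Socs4* to *Socs7*, have longer N-terminal regions and are linked more to growth factor receptor and insulin signaling than to JAK-STAT feedback. *Socs4*, which has been tied to the EGF receptor, measured 578, 515 and 586 normalized counts in WT replicates 1 to 3. In *Irf1-/-* replicates 1 to 3 it measured 418, 384 and 371. The highest *Irf1-/-* library lay well below the lowest WT library, and the spread within each genotype was small. The log2 fold change of *Socs4* was −0.52 ± 0.16 (SE; limma, adjusted *P* = 0.10). Over the 16 alternatives its adjusted *P* ran from 0.021, in DESeq2, to 0.32, and it was called in 0 of them.

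*Socs5*, the closest relative of *Socs4*, measured 3700, 3934 and 3439 normalized counts in WT replicates 1 to 3. The *Irf1-/-* replicates 1 to 3 measured 4358, 4831 and 4133. The genotypes did not overlap, with *Irf1-/-* libraries higher, opposite to the direction of *Socs4*. The log2 fold change of *Socs5* was 0.27 ± 0.10 (SE; limma, adjusted *P* = 0.17). Over the 16 alternatives its adjusted *P* ran from 0.039, in limma after quantile normalization, to 0.40, and it was called in 0 of them.

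*Socs6*, which binds KIT and other receptor tyrosine kinases, ranged from 2390.4 to 2807 normalized counts in WT and from 2503 to 3097 in *Irf1-/-* HSCs. Its libraries overlapped between genotypes, and the log2 fold change was 0.10 ± 0.11 (SE; limma, adjusted *P* = 0.75), with a 95% interval from −0.14 to 0.33. Dropping 1 library moved this value of *Socs6* to 0.023 (WT replicate 3), 0.032 (*Irf1-/-* replicate 2) or 0.19 (*Irf1-/-* replicate 3). *Socs7*, which binds insulin receptor substrate, ranged from 293 to 352 in WT and from 246 to 306 in *Irf1-/-* HSCs. Its genotypes overlapped through WT replicate 2 and *Irf1-/-* replicate 3, and the log2 fold change was −0.30 ± 0.20 (SE; limma, adjusted *P* = 0.51; 95% interval −0.72 to 0.12).

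Levels were compared between members per kilobase, with the longest protein-coding transcript of each symbol in GENCODE M1 as its length. In WT HSCs, *Cish* had the highest level, 1954 ± 219 normalized counts per kilobase (SD, n = 3), followed by *Socs5* with 840.4 ± 56.4. *Socs1* came next with 631 ± 16.2 per kilobase, then *Socs2* with 505 ± 75.3 and *Socs6* with 440.0 ± 38.2. *Socs3* stood at 281 ± 64.0 per kilobase, and *Socs4* and *Socs7* were far lower at 81.4 ± 5.66 and 47.3 ± 4.81. Of these neighbors in WT, *Socs2* and *Socs6* overlapped between libraries and the others did not.

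In *Irf1-/-* HSCs the middle of this order changed. *Socs3* reached 630.4 ± 39.3 normalized counts per kilobase (SD, n = 3), beside *Socs2* with 715 ± 126 and *Socs1* with 563 ± 51.5, and these neighbors overlapped between libraries. The ratio of *Socs3* to *Socs1* per kilobase was 0.419, 0.355 and 0.567 in WT replicates 1 to 3, and it was 1.06, 1.11 and 1.19 in *Irf1-/-* replicates 1 to 3. *Socs1* therefore exceeded *Socs3* in every WT library, and *Socs3* exceeded *Socs1* in every *Irf1-/-* library.

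Summed over the family, the level per kilobase was 4804, 4564 and 4972 in WT replicates 1 to 3 and 6861, 6209 and 5649 in *Irf1-/-* replicates 1 to 3. Each *Irf1-/-* sum was above each WT sum. *Cish* made up 40.8% ± 3.09 of the sum in WT and 43.9% ± 5.80 in *Irf1-/-* HSCs (SD, n = 3), shares that overlapped between genotypes. The share of *Socs3* was 5.85% ± 1.09 in WT and 10.2% ± 1.08 in *Irf1-/-* HSCs, and that of *Socs1* was 13.2% ± 0.715 and 9.04% ± 0.701. With *Cish* left out, the sum of the other 7 members averaged 2826 ± 107 in WT and 3486 ± 337 in *Irf1-/-* HSCs.

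Correlations between members were of both signs. Of the 28 pairs of SOCS genes, 14 had a positive and 14 a negative Pearson correlation of log2(normalized count + 1) over the 6 libraries. The genotype difference was left in, so these signs partly restate that 5 members had log2 fold changes above 0 and 3 below. *Socs2* with *Socs3* had the highest correlation (r = 0.83), and *Socs5* with *Socs7* the lowest (r = −0.94). *Socs2* and *Socs5* were close behind (r = 0.82), as were *Cish* and *Socs3* (r = 0.81).

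The genes whose values followed each member most closely over the 6 libraries were listed among 12068 genes, as a description. Closest to *Socs3* were *Gstm4* (r = 0.999), *Thsd1* (r = 0.995) and *Rgl1* (r = 0.995), of which *Rgl1* was itself called higher. *Ntn4* (r = 0.991), *Etl4* (r = 0.987) and *Rps6ka5* (r = 0.986) were closest to *Cish*. *Socs2* was most like *Ptger4* (r = 0.990), *Mecom* (r = 0.989) and *Pkp2* (r = 0.986), where *Mecom* encodes a transcription factor required by HSCs. *Socs1* followed *Cdca5* (r = 0.996), *Apool* (r = 0.994) and *Usp18* (r = 0.988), the last an inhibitor of type I interferon receptor signaling. For *Socs4* the closest were *Ston2* (r = 0.995), *Tlr4* (r = 0.985) and *Lpin2* (r = 0.983), and for *Socs5* they were *Rasip1* (r = 0.993), *Prmt2* (r = 0.986) and *Efhc2* (r = 0.985). *Socs6* was matched by *Tcf12* (r = 0.994), *Arhgef1* (r = 0.989) and *Sh3bp2* (r = 0.986), and *Socs7* by *Prrc2c* (r = 0.993), *Huwe1* (r = 0.989) and *Zc3h12b* (r = 0.987). These values describe 6 libraries and say nothing of shared control.

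Upstream of the SOCS genes, 0 of 4 Janus kinases were called by limma, where 1 of 4 had an unadjusted *P* below 0.05, and DESeq2 and edgeR also called 0. Their median log2 fold change was 0.13, with *Jak1*, *Jak3* and *Jak2* holding the most counts. *Stat3*, *Stat5a* and *Stat5b*, the STATs that most directly induce *Socs3*, *Cish* and *Socs2*, had log2 fold changes of 0.24, −0.14 and 0.085 and were not called.

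Of 29 tested cytokine receptor chains, 3 were called higher and 1 lower (median log2 fold change 0.14). *Il10ra*, a receptor chain that signals through STAT3, was higher by a log2 fold change of 1.60 ± 0.23 (SE; limma, adjusted *P* = 0.0015). *Csf2rb* and *Csf2rb2*, near-identical copies that encode beta chains for interleukin-3 and related cytokines, were higher by 0.81 and 0.83, and reads may be split between them. Leaving out *Irf1-/-* replicate 3 ended the call of *Csf2rb* (log2 fold change 0.65), and that of *Csf2rb2* ended after quantile normalization, when *Irf1-/-* replicate 1 or 3 was dropped and likewise for WT replicate 1 or 2 (0.61 to 0.99 over all alternatives). *Il12rb1*, a chain of the interleukin-12 receptor, was lower by −2.40 ± 0.22 (SE; limma, adjusted *P* = 2.9e-05). *Ifngr1* and *Il2rg*, among the chains with the most counts, were not called.

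Of 6 growth factor receptor tyrosine kinases, *Flt3* was called higher (log2 fold change 0.67), a call that ended without any one *Irf1-/-* replicate or without WT replicate 2 (0.45 to 0.81 over all alternatives), while *Kit* and *Igf1r* were not called, and the median was 0.068. Among 10 tested cytokine ligands, *Il7* was called lower (log2 fold change −1.14), a call that ended without a filter, in edgeR, and when *Irf1-/-* replicate 1 or 3 was dropped and likewise for WT replicate 1 or 2 (−1.35 to −0.84 over all alternatives), and the median was −0.18. *Il15*, *Osm* and *Il4*, the ligands with the most counts, were not called, and *Il3* and *Csf3* stayed at or below 3 reads in every library.

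The proteins that SOCS boxes recruit showed no called gene. Of 8 elongin, cullin and RING partners, limma, edgeR and DESeq2 each called 0, 1 had an unadjusted *P* below 0.05 in limma, and the median log2 fold change was −0.13, with *Rbx1*, *Nedd8* and *Elob* holding the most counts. Among 13 other SOCS box genes of the SPSB and ASB families, 1 was called lower, *Asb13* (log2 fold change −0.65 ± 0.12 SE; limma, adjusted *P* = 0.0077), a call that ended without WT replicate 2, and *Asb8*, *Spsb3* and *Asb6* were not called. Of 13 other inhibitors of JAK-STAT signaling, limma, edgeR and DESeq2 each called 0, 1 had an unadjusted *P* below 0.05 in limma, and the median was −0.028. *Ptpn6*, *Ptprc* and *Ptpn1*, the phosphatases with the most counts of that list, had log2 fold changes of 0.068, −0.020 and 0.0090.

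Genes known to be induced by STAT3 or STAT5, as *Socs3* and *Cish* are, numbered 14 tested, of which 3 were called higher and 0 lower. Over all tested genes, 0.96% were called higher and 0.954% lower. The median log2 fold change of the list was 0.24. Like the other lists, it was chosen with earlier results of these data known, and the authors report *Bcl3* and *Cebpd* as up-regulated. The count is therefore a description and no independent support for a change in STAT activity, which was not tested. *Pim2*, a survival kinase, measured 7413, 4446 and 5907 normalized counts in WT replicates 1 to 3 and 12299, 15254 and 14531 in *Irf1-/-* replicates 1 to 3. Its genotypes did not overlap (log2 fold change 1.27 ± 0.15 SE; limma, adjusted *P* = 0.00026). *Bcl3* and *Cebpd* were higher by 0.80 and 1.04 (limma, adjusted *P* = 0.0025 and 0.010). *Myc*, *Ccnd2* and *Mcl1*, the genes of that list with the most counts, were not called (log2 fold changes 0.073, −0.034 and 0.057).

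*Socs3* also responds quickly to handling, so immediate-early and stress genes were set beside it. Of 14, *Egr1* was called higher (log2 fold change 1.01 ± 0.10 SE; limma, adjusted *P* = 3.9e-05) and *Btg2* lower (−0.63), a call that ended in edgeR, after quantile normalization, and when *Irf1-/-* replicate 2 or 3 was dropped and likewise for WT replicate 1 or 2 (−0.80 to −0.53 over all alternatives), with a median of 0.059. Libraries did not overlap for 5 of the 14, against 19.9% of all tested genes, with *Egr1*, *Ier3*, *Junb* and *Zfp36* higher in all *Irf1-/-* libraries and *Btg2* lower. *Ier3* had a log2 fold change of 0.50 (limma, adjusted *P* = 0.029) and was called only without *Irf1-/-* replicate 2 (0.61), and *Junb* and *Zfp36* had 0.20 and 0.18 and were not called. *Fos* measured 422, 379 and 57.0 normalized counts in WT replicates 1 to 3 and 604, 133 and 782 in *Irf1-/-* replicates 1 to 3, overlapping between genotypes. *Ier2* and *Jun*, with the most counts of the list beside *Egr1*, were not called. The part of handling in the *Socs3* difference was not tested.

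Markers of the sorted population were present in every library, with *Kit* the most abundant of 10 HSC markers and a summed count of 207919 to 229063 in WT and 220884 to 244976 in *Irf1-/-* HSCs. *Fgd5* was called higher (log2 fold change 0.83), and the median was 0.24, with 7 of the 10 markers above 0 and 3 below. *Ly6a*, which encodes the sort marker Sca-1, was below WT in every *Irf1-/-* library (log2 fold change −0.43 ± 0.09 SE; limma, adjusted *P* = 0.025), short of the fold change needed for a call. It was the 1 marker below, while 4 of the 10 were above WT in every *Irf1-/-* library. Among the 4 were *Procr* (0.52; limma, adjusted *P* = 0.011), called only without WT replicate 1, and *Slamf1* (0.24), which encodes CD150 and was not called. Libraries did not overlap for 19.9% of all tested genes. In sorted bulk cells, a shift in cell composition and a change in RNA per cell cannot be told apart.

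The lineage-negative gate is meant to remove mature B, T, myeloid and erythroid cells. Granulocyte markers, in a lineage that expresses *Socs3*, summed to 402, 362 and 7875 normalized counts in WT replicates 1 to 3 and to 529, 539 and 930.1 in *Irf1-/-* replicates 1 to 3. WT replicate 3 stood apart, with *Ngp* the most abundant and *Ly6g* at 46.3 there and at 0 in WT replicates 1 and 2. It was also the WT library with the most *Socs3* and *Cish*. Limma and edgeR each called 0 of 7 granulocyte markers, and 0 had an unadjusted *P* below 0.05 in limma, while *Ngp* turned from a log2 fold change of −0.49 to 1.67 and was called higher when WT replicate 3 was dropped. Without it, the log2 fold change of *Socs3* was 1.35 and that of *Cish* 0.57, and 569 genes were called in place of 333.

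Of 6 tested megakaryocyte markers, *Pf4*, *Gp1bb* and *Gp5* were called lower, *Itga2b*, *Gp9* and *Ppbp* were not called, and the median log2 fold change was −0.60. *Itga2b* was below WT in every *Irf1-/-* library (log2 fold change −0.56). It was called lower only without WT replicate 3 (−0.72 to −0.35 over all alternatives). The call of *Gp5* ended when *Irf1-/-* replicate 1 or 2 was dropped and likewise for WT replicate 1 or 2 (−0.78 to −0.48 over all alternatives). Their sum was 52527, 66824 and 49518 in WT replicates 1 to 3 and 44151, 27466 and 39552 in *Irf1-/-* replicates 1 to 3, with *Itga2b* the most abundant. *Irf1-/-* replicate 2, with the lowest megakaryocyte sum, had the most *Socs3*, *Socs2* and *Socs5* of the 6 libraries. It also had the least *Cish* of the *Irf1-/-* libraries (6753 normalized counts). WT replicate 2, with the highest sum, had the least *Socs3*, *Socs2* and *Cish* of the 6 libraries. Its *Socs5* was the highest of the WT libraries (3934), so members did not follow this sum in one direction. The part of megakaryocyte-primed cells in the SOCS differences was not tested.

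Of 5 tested erythroid markers, *Klf1* and *Car1* were called lower, and the list sum was 3601, 2486 and 4189 in WT replicates 1 to 3 and 1915, 896 and 1114 in *Irf1-/-* replicates 1 to 3. The call of *Klf1* ended when *Irf1-/-* replicate 1 or 2 was dropped and likewise for WT replicate 1 or 2 (−0.84 to −0.50 over all alternatives), and that of *Car1* without *Irf1-/-* replicate 2 or 3 and in edgeR and DESeq2 (−4.77 to −2.47). *Hbb-bs*, *Hba-a1* and *Hba-a2* are listed at 0 in every library, and near-identical globin copies can lose reads in counting. Among B cell, T and NK cell, and monocyte and macrophage markers, limma and edgeR both called 0 of 6, 0 of 4 and 0 of 8, where 1, 0 and 0 had an unadjusted *P* below 0.05 in limma. Their sums ranged over the 6 libraries from 2740.0 to 3229 with *Cd79b* the most abundant, from 659 to 1231 with *Klrb1c*, and from 25291 to 34637 with *Lyz2*. *Gzma* was at 0 in every library and *Cd8a* at or below 3 reads. Of 7 dendritic cell markers, 1 was called higher, *Flt3*, which HSCs and progenitors also express and whose call had the limits given above. The median log2 fold change of the 7 was −0.47, with 2 markers above 0 and 5 below. The sum of these markers ranged from 5601 to 8598 with *Bst2* the most abundant. The gate would remove mature cells of these lineages, and the part of any that remained, or of primed HSCs, in the SOCS differences was not tested.

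Promoter sequences were available for 4 of the 8 members, *Cish*, *Socs1*, *Socs3* and *Socs4*, from 250 bases before to 50 after the gene start (RefSeq, GRCm38.p6). Letters recognized by STAT proteins (TTCNNNGAA, the same on both strands) and by interferon regulatory factors (GAAANNGAA, either strand) were searched, since STATs induce SOCS genes and IRF1 is the factor removed. The STAT letters are in 8.30% and the IRF letters in 8.56% of the 32851 promoters of 300 bases. *Cish* held the STAT letters in 2 places, *Socs3* in 1 and *Socs1* and *Socs4* in 0, while *Socs1* held the IRF letters in 2 overlapping places and the other 3 members in 0. The stretches around the matches are shown 5′ to 3′ on the strand of the gene, with the matching letters in capitals.
*Socs3*, chr11:117969502-117969530, minus strand: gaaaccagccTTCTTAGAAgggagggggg
*Cish*, chr9:107296654-107296683, plus strand: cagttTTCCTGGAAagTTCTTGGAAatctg
*Socs1*, chr16:10785598-10785626, minus strand: cttgccgGAAAGAGAAACCGAAagcgggg
The match in *Socs3* begins 154 bases before the gene start, and of those in *Cish*, the first begins at the gene start and the other 11 bases after it. A match is a description of the letters and not a binding site. In the RefSeq gene order, *Socs3* and *Socs7* share chromosome 11 with *Irf1*, with 990 and 643 tested genes between. *Gm33230* overlaps *Socs2* and *Gm30510* overlaps *Socs5*, so their reads cannot be fully told apart where the counting did not use strand.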

How the data were processed

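RNA from sorted HSCs of 3 WT and 3 *Irf1-/-* mice was amplified with SMART-Seq v4, which marks neither strand nor molecules. Per the labels and the methods, the authors used Trim Galore for trimming, HISAT2 with mm39 for alignment, Htseq-count for gene counts and DESeq2 for normalization; versions, annotation and strand setting are not given in the sources used here. The deposited values are a signal of counts divided by size factors. Dividing by the step of each library gave whole reads for 100% of values (within 0.01), and edgeR's quasi-likelihood test on those reads called 327 genes. Floors of 3 reads cover counting error only.

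Genes with a mean of at least 10 were tested with limma 3.58.1 (R 4.3.3) on log2(normalized count + 1) with a mean-variance trend and Benjamini-Hochberg adjustment over 17404 genes. The fits were first tested on simulated data. Replicate libraries of one genotype differed beyond sampling noise (chi-square per gene 16.0 to 30.0). Named genes were the members, *Irf1*, each list's called genes and its 3 genes with the highest mean count, and the 3 genes most correlated with each member (mean of at least 100). Alternatives were edgeR 4.0.16, DESeq2 1.42.0, other pseudocounts, filters and scalings, no trend, a replicate block and leaving out each library. Members and lists were chosen with earlier results of these data known. Proteins were not analysed here. Some genes of the lists are not reported here.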

Additional observations from a re-analysis of the deposited data

How the results depend on the processing

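All 128 fold changes of the 8 members under 16 alternatives kept their direction, and 126 also kept their side of the threshold. The exceptions were *Socs3* without the mean-variance trend in limma (log2 fold change 1.19, not called) and *Socs2* without WT replicate 1 (called). Leaving out each library in turn gave 1.03 to 1.35 for *Socs3* and 0.36 to 0.61 for *Socs2*. The number of members called was 0 without the trend, when 40 genes were called in all, and 1 to 2 with a library left out. DESeq2 called 510 genes in place of 333. With a library left out the count ran from 204 to 569: 204 when *Irf1-/-* replicate 3, 207 when WT replicate 2 and 569 when WT replicate 3 was dropped. The cause of these shifts was not tested. The main direction of variation over tested genes (first principal component, 32.4% of variance) did not separate the genotypes. On it, WT replicate 3 (−39.2) lay beside *Irf1-/-* replicates 1 and 3 (−37.4 and −30.8). WT replicates 1 and 2 (36.7 and 41.9) lay beside *Irf1-/-* replicate 2 (28.8). The second component (24.8%) was positive in all *Irf1-/-* and negative in all WT libraries.

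A replicate block gave 415 called genes and 1 called member. Deviations of same-numbered libraries correlated at −0.094, 0.25 and 0.15. *Irf1-/-* replicates 2 and 3 correlated best with the WT library of the same number, and *Irf1-/-* replicate 1 with WT replicate 3 (0.25). The main fit had no block, a choice made before these values were seen. Whether same-numbered libraries were handled together is not stated, and a pairing was not tested further.

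Each member held at least 241 reads in every library. With amplified libraries that carry no molecular identifiers, these reads are not independent molecules, and 3 libraries per genotype leave the 95% intervals of *Cish*, *Socs2*, *Socs4* and *Socs7* on both sides of the fold change threshold.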
